A study of Homo sapiens with 36 samples.

Results

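The let-7 and miR-98 guide strands were followed through senescence of WI-38 cells, a line of normal human lung fibroblasts. The members are the 9 mature miRNAs listed as hsa-let-7a-5p, hsa-let-7b-5p, hsa-let-7c-5p, hsa-let-7d-5p, hsa-let-7e-5p, hsa-let-7f-5p, hsa-let-7g-5p, hsa-let-7i-5p and hsa-miR-98-5p, where the prefix stands for human and is left out from here on. They were chosen by name, among 1508 listed miRNAs, and all 9 passed the filter on low counts that left 360 miRNAs for testing. The data are 36 small RNA libraries from 18 conditions, each with 2 libraries described as biological replicates. Young, proliferating, untreated cells served as control (Ctrl). Plasma membrane damage-dependent senescence (PMD-Sen) was started with 0.0095% sodium dodecyl sulphate (SDS), a detergent, for 24 h. DNA damage response-dependent senescence (DDR-Sen) was started with 250 nM doxorubicin (DXR), which damages DNA, for 24 h. Both series were sampled at 8 times counted from the washout of the agent, daily from D0 to D4 and then at D6, D8 and D16 (days 6, 8 and 16). The paper describes D0 as the end of the 24 h treatment, before washout. Replicatively senescent cells (RS) had been passaged serially. All groups are the same cell line, there was no untreated sample at the later days, and whether fewer cells made a miRNA or each cell made less of it cannot be told apart in such bulk libraries.

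Let-7 was first known from worms, where it times the passage from larval to adult cells. A mature miRNA guides Argonaute to messenger RNAs that pair with its seed, the bases 2 to 8 from the 5′ end, and miRNAs with the same seed are expected to share much of their target set. The let-7 seed is known for repressing growth genes such as RAS, MYC and HMGA2, while the RNA-binding protein LIN28 blocks let-7 maturation in stem cells. Differentiated cells such as fibroblasts carry let-7 at high levels.

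The sequences are shown because they explain both the common seed and how alike the members are to a read counter. In the RefSeq table (GRCh38.p14) all 9 matched, all are 22 nt long, and capitals mark the seed GAGGUAG.
let-7a-5p: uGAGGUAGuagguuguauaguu
let-7b-5p: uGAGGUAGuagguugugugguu
let-7c-5p: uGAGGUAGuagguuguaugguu
let-7d-5p: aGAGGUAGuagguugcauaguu
let-7e-5p: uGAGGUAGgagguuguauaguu
let-7f-5p: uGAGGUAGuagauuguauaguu
let-7g-5p: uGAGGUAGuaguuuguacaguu
let-7i-5p: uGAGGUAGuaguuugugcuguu
miR-98-5p: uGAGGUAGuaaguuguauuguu

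Positions were counted from 1 at the 5′ end, with the base of let-7a-5p first. Let-7c-5p differed from let-7a-5p by A19G alone, let-7e-5p by U9G and let-7f-5p by G12A. Let-7b-5p carried A17G and A19G, and let-7d-5p carried U1A and U16C. Let-7g-5p carried G12U and U18C, miR-98-5p carried G11A and A19U, and let-7i-5p was the most distant with G12U, A17G, U18C and A19U. Of the 36 pairs of members, 4 differed at 1 base. Reads that fit several miRNAs were split by the counting, and 129 of the 324 member values were not whole numbers. How often a read was given to the wrong member was not tested. The GC content was 31.8% in let-7f-5p and miR-98-5p, 36.4% in let-7a-5p and let-7g-5p, 40.9% in let-7c-5p, let-7d-5p, let-7e-5p and let-7i-5p, and 45.5% in let-7b-5p.

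The 9 members come from 12 hairpins on 8 chromosomes (GRCh38.p14). Let-7a-5p has 3 hairpins, at chr9:94175957-94176036 (plus strand), chr11:122146522-122146593 (minus) and chr22:46112749-46112822 (plus), and its reads cannot be assigned to any of them. The hairpin on chromosome 9 lies in the long non-coding host gene MIRLET7A1HG with those of let-7f-5p (chr9:94176347-94176433) and let-7d-5p (chr9:94178834-94178920), within 2964 nt. The hairpin on chromosome 22 lies with that of let-7b-5p (chr22:46113686-46113768) in MIRLET7BHG. The hairpin on chromosome 11 lies in an intron of MIR100HG. The second let-7f-5p hairpin (chrX:53557192-53557274, minus) and that of miR-98-5p (chrX:53556223-53556341, minus) lie in introns of HUWE1, which codes for a ubiquitin ligase. Let-7c-5p (chr21:16539828-16539911) lies in MIR99AHG, and let-7e-5p (chr19:51692786-51692864) lies in an intron of SPACA6. Let-7g-5p (chr3:52268278-52268361, minus) lies in an intron of WDR82, and let-7i-5p (chr12:62603686-62603769) lies in an intron of MIRLET7IHG.

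The libraries held 81668 (PMD-Sen D0 replicate 2) to 1933435 counts (replicate 1 of PMD-Sen at D16), and the median library held 376989. Standard errors (SE) come from the spread between libraries and cover more than counting error. The 6 fibroblast miRNAs on the marker list, which include miR-199a and miR-214, were all tested and summed to 51956 to 131841 CPM, the counts of a miRNA relative to the total of its library after scaling by TMM. Of the 6 epithelial markers 1 passed the filter (summed 14.6 to 163 CPM), and of the 6 blood markers none passed (0 to 12.6 CPM). One measure set some libraries apart. In each library, the log2 CPM of the 320 miRNAs outside the family with a known sequence was regressed on their GC content, over the 351 tested that are not members. This GC slope lay between -0.0615 and -0.00588 log2 CPM per percent GC, and 4 libraries had a slope above -0.02. These flat libraries were PMD-Sen D0 replicate 1, PMD-Sen D1 replicate 2, PMD-Sen D2 replicate 2 and RS replicate 1. Member calls that rest on them are given with and without them. Other results, such as family shares, ratios of summed CPM and counts of separated libraries, mostly include them.

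Let-7a-5p dominated the family in every library. It made up 51.4% to 58.2% of the summed CPM of the 9 members and was the most abundant or second most abundant of all miRNAs. By median over the 36 libraries the order of the levels was let-7a-5p (113078 CPM), let-7f-5p (34768), let-7e-5p (18028), let-7b-5p (15624), let-7g-5p (10907), let-7i-5p (6637), let-7d-5p (3802), miR-98-5p (2304) and let-7c-5p (590). All members are of the same length, so CPM compares them per length, although adapter ligation can favour particular ends. Let-7e-5p exceeded let-7b-5p in 25 of 36 libraries, so these neighbours did not keep their order. Let-7b-5p exceeded let-7g-5p in 31, let-7f-5p exceeded let-7e-5p in 35 and let-7i-5p exceeded let-7d-5p in 35. The other neighbours kept their order in all 36. From the lowest to the highest library the levels spanned 2.01-fold (let-7d-5p) to 3.65-fold (let-7c-5p). The SD of log2 CPM over libraries was between 0.26 (let-7g-5p) and 0.45 (let-7b-5p).

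**Figure D1:**
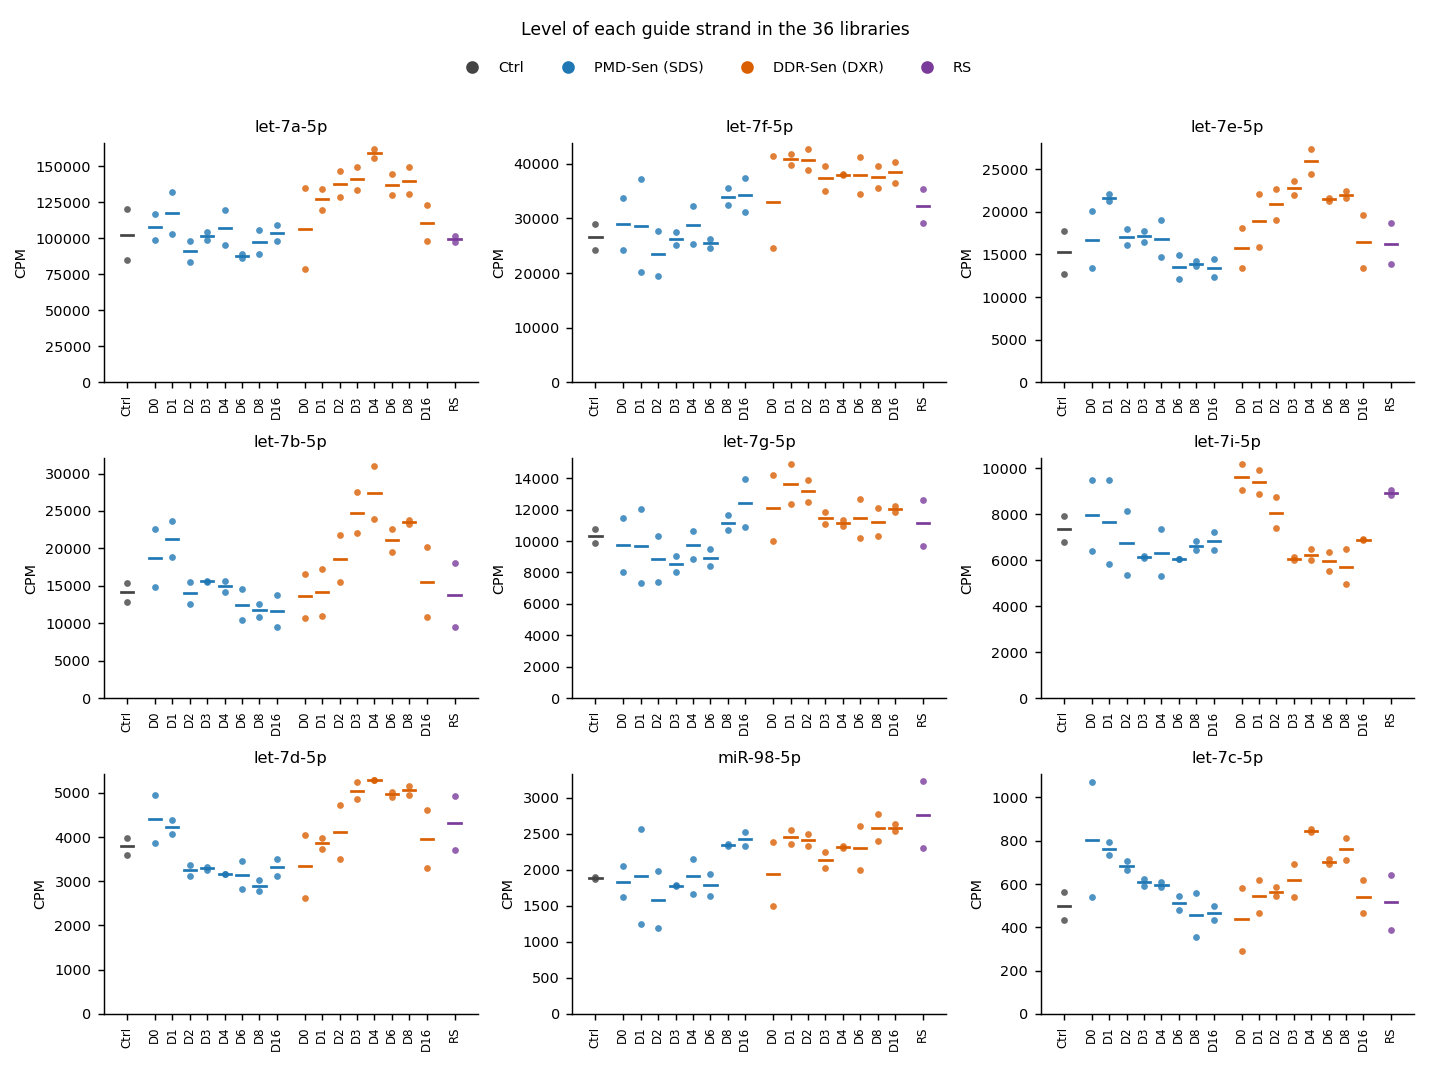
CPM of each guide strand (y axis, from 0, a scale of its own in each panel) in the 18 conditions (x axis). Each point is a library and each bar the mean of 2. Let-7a-5p, let-7b-5p, let-7d-5p and let-7e-5p are highest at DDR-Sen D4, while let-7i-5p is highest at DDR-Sen D0.

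Together the 9 strands took 16.1% (DDR-Sen D0 replicate 2) to 24.4% (DDR-Sen D4 replicate 1) of all miRNA counts. In Ctrl the share was 21.6% and 16.8%, a mean of 19.2% ± 3.39 (SD, n = 2). In PMD-Sen the mean was 21.1% ± 0.552 at D0 and 21.7% at D1, and from D2 to D16 it lay between 17.8% and 19.3%. In DDR-Sen it was 19.6% ± 4.83 at D0, was 21.4%, 22.5% and 23.2% on the next 3 days, 24.2% ± 0.298 at D4 and 20.8% ± 2.48 at D16. RS had 18.7%. From D2 to D8 the 10 PMD-Sen libraries held 17.0% to 20.0% and the 10 DDR-Sen libraries 21.1% to 24.4%, with no overlap. These days were chosen after the values were seen, and the share of all miRNAs without overlap on them is not given.

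**Figure D2:**
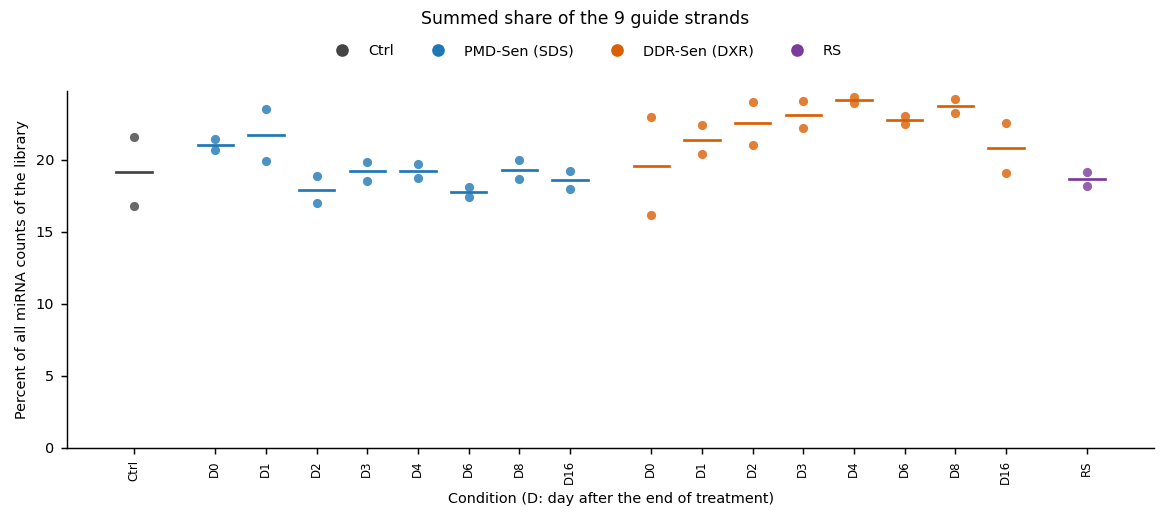
Summed counts of the 9 guide strands as a percent of all miRNA counts of the library (y axis, from 0) by condition (x axis). Points are libraries and bars means of 2. The DDR-Sen libraries of D2 to D8 (21.1% to 24.4%) lie above the PMD-Sen libraries of the same days (17.0% to 20.0%). This range of days was picked with the values known.

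The first comparison asked whether the family changes after membrane damage. It was not called at any PMD-Sen time point. By edgeR, whose p-values were adjusted over the 360 miRNAs by the method of Benjamini and Hochberg, 0 of the 9 members had an adjusted p below 0.05 (a call) at each of the 8 times. DESeq2 also called 0. An unadjusted p below 0.05 was found in 3 of the 72 member tests and in 18.2% of all tests. Over the same 8 comparisons 5.31% of all tests were called, from 0.278% at D0 and D3 through 2.22%, 2.5%, 3.89%, 6.67% and 10% at D1, D2, D4, D6 and D8 to 16.7% at D16. The 3 unadjusted results were let-7c-5p at D0 (log2 fold change 0.70) and D1 (0.62) and let-7e-5p at D1 (0.51). Their libraries did not all separate from Ctrl. Let-7c-5p, the rarest member, had 1069 and 541 CPM at D0 and 736 and 792 at D1, against 563 and 432 in Ctrl. The D0 library with the high value is the flat library, and the flat library of D1 is replicate 2. Without the flat libraries the 3 values were 0.20, 0.50 and 0.41.

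At PMD-Sen D16 the members lay on both sides of Ctrl. The log2 fold changes were 0.37 (SE 0.23) for let-7f-5p, 0.37 (SE 0.26) for miR-98-5p and 0.27 (SE 0.22) for let-7g-5p. On the other side were let-7b-5p at -0.28 (SE 0.29), let-7d-5p at -0.19 (SE 0.20) and let-7e-5p at -0.19 (SE 0.22). The median of the members was -0.08 and that of all tested miRNAs 0.05. The lowest adjusted p among the members was 0.262, and 0 members had an unadjusted p below 0.05, beside 33.9% of all. Let-7a-5p, which carries most of the family, had 109311 and 97948 CPM against 119967 and 84732 in Ctrl, values that overlap.

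After DNA damage most of the family was above Ctrl for days. From D1 to D16 the log2 fold change of 8 or 9 of the 9 members was positive, and with total counts in place of TMM that of 6 or 7 was. Let-7i-5p was the exception from D3 on. The members' median was 0.32, 0.36, 0.42 and 0.52 from D1 to D4, 0.42 at D6, 0.46 at D8 and 0.13 at D16. The median of all tested miRNAs was between -0.05 and 0.10 at these days. The size was moderate, and no member reached a 2-fold change. Few of these differences passed the adjusted test. Only D4 had calls, 3 members of 9, all higher, beside 6.67% of all miRNAs (5% higher). No member was called on the other days. Of all miRNAs 0%, 0.278%, 0.278% and 4.44% were called from D0 to D3, 10.6% at D6, 11.4% at D8 and 23.1% at D16. Over the 8 times the members gave 3 calls with edgeR, 2 with DESeq2 and 25 at unadjusted p, of 72 tests, and of all tests 7.08% were called and 20.5% had an unadjusted p below 0.05.

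**Figure D3:**
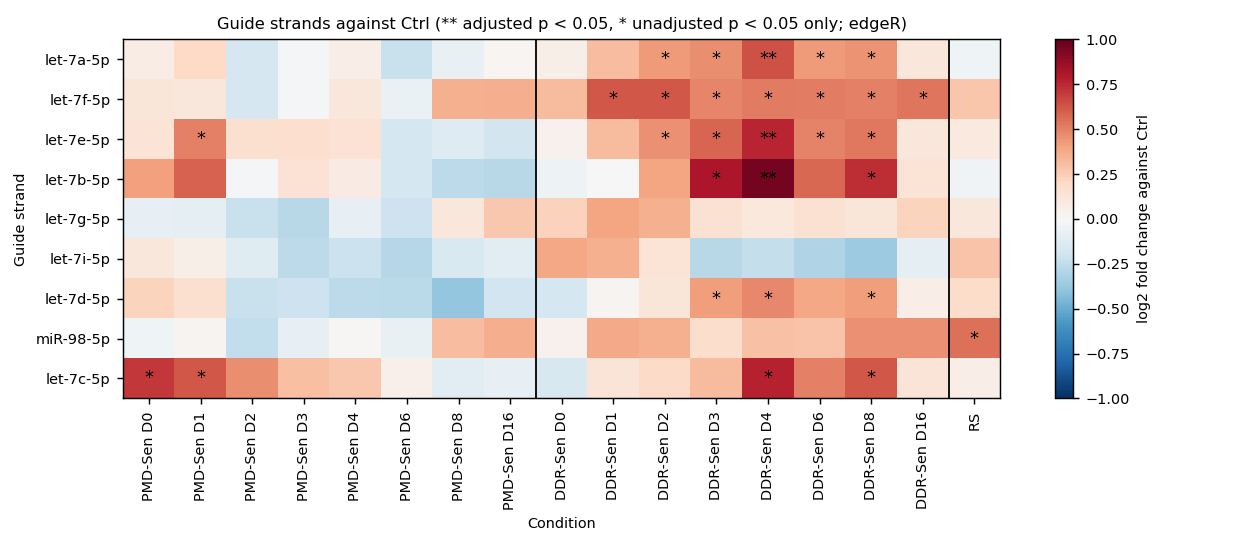
Heat map of log2 fold change against Ctrl (colour, red higher and blue lower) for each guide strand (rows) in the 17 other conditions (columns). A pair of stars marks adjusted p below 0.05 and a single star unadjusted p alone. The adjusted calls are let-7a-5p, let-7b-5p and let-7e-5p at DDR-Sen D4.

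At DDR-Sen D4 the called members were upregulated in both libraries. Let-7b-5p had 30965 and 23909 CPM against 15396 and 12853 in Ctrl, a log2 fold change of 0.96 (SE 0.29, adjusted p = 0.044). Let-7e-5p had 27364 and 24462 CPM against 17800 and 12704, a log2 fold change of 0.77 (SE 0.22, adjusted p = 0.0294). Both libraries of each lay well above both Ctrl libraries. Let-7a-5p had 162174 and 155956 CPM against 119967 and 84732, a log2 fold change of 0.64 (SE 0.20, adjusted p = 0.0474). Let-7c-5p had a change of similar size (838 and 852 CPM against 563 and 432, log2 fold change 0.77, SE 0.30) with an adjusted p of 0.112. In all, 8 of the 9 members had both D4 libraries above both Ctrl libraries, as had 33.1% of all tested miRNAs. The ninth, let-7i-5p, had both below (6478 and 5988 CPM against 7906 and 6789), as had 27.2% of all.

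These D4 calls stand near the threshold and depend on the scaling and on single libraries. Without Ctrl replicate 2, whose family CPM of 157062 is below the 207213 of replicate 1, the log2 fold changes were 0.33 for let-7a-5p, 0.76 for let-7b-5p and 0.47 for let-7e-5p, and none was called. Leaving out DDR-Sen D4 replicate 1 (0.60, 0.75 and 0.68) or replicate 2 (0.54, 1.01 and 0.72) also left none, and without Ctrl replicate 1 (0.76, 0.95 and 0.88) let-7e-5p was called. With total counts in place of TMM the 3 values were 0.37, 0.69 and 0.50, none called, and all tested miRNAs shifted by -0.26. DESeq2 called let-7b-5p (0.84) and let-7e-5p (0.65). With only the 4 libraries of this comparison in the fit, 6 members were called, and the share of all miRNAs in that fit is not given.

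On the other DDR-Sen days the 3 members had lower estimates than at D4 and no call. Let-7b-5p had log2 fold changes of 0.40, 0.81, 0.58 and 0.74 at D2, D3, D6 and D8 and of -0.05 at D0 and 0.14 at D16. Let-7e-5p had 0.45, 0.58, 0.49 and 0.53 on the same 4 days. Let-7a-5p had 128404 and 146927 CPM at D2, 149068 and 133698 at D3, 144207 and 130199 at D6 and 149494 and 130399 at D8. Each of these libraries was above both Ctrl libraries. At D16 it had 123108 and 97946 CPM, and the values overlapped Ctrl again. The number of members with both libraries above both Ctrl libraries was 4, 6, 7 and 8 from D1 to D4, 7 at D6, 7 at D8 and 3 at D16. Among all tested miRNAs 26.1%, 25.3%, 29.7%, 33.1%, 33.9%, 29.4% and 31.9% did so. At D0 only let-7i-5p did, beside 18.9% of all.

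Averaged over D1 to D16, a comparison added after the values were seen, let-7f-5p was higher than Ctrl in DDR-Sen (log2 fold change 0.54, SE 0.18, adjusted p = 0.0423). It was the only call among the 9 members, beside 15.3% of all miRNAs (6.94% higher). Its 14 libraries had 34527 to 42717 CPM with a median of 39149, all above the 28953 and 24163 of Ctrl. The call was lost without Ctrl replicate 1 (0.62) or replicate 2 (0.40) and without each DDR-Sen library but D3 replicate 2 and D4 replicate 1 (0.49 to 0.55). DESeq2 called 0 members in this average. Let-7b-5p (0.52, SE 0.23), let-7e-5p (0.46, SE 0.17) and let-7a-5p (0.40, SE 0.15) had adjusted p of 0.124, 0.0622 and 0.0769. In PMD-Sen the same average lay between -0.20 (let-7d-5p) and 0.22 (let-7c-5p), and 0 members were called by edgeR, by DESeq2 or at unadjusted p, beside 7.5% of all miRNAs called and 20.3% at unadjusted p.

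The latest DDR-Sen day and RS had no called member. At DDR-Sen D16, 0 of 9 were called by edgeR or DESeq2 and 1 had an unadjusted p below 0.05, beside 34.2% of all miRNAs. That was let-7f-5p, with 40398 and 36440 CPM and a log2 fold change of 0.53 (SE 0.23, adjusted p = 0.0986). MiR-98-5p followed with 0.45 (SE 0.26), and the other members lay between -0.09 and 0.22. Without a filter on low counts let-7f-5p was called at D16 (0.59), as it was without the flat libraries (0.48). In RS, 0 of 9 were called by edgeR or DESeq2 beside 22.5% of all miRNAs, and 1, miR-98-5p, had an unadjusted p below 0.05, as 34.7% of all did.

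MiR-98-5p in RS had 2300 and 3228 CPM against 1878 and 1896 in Ctrl, a log2 fold change of 0.55 (SE 0.26, adjusted p = 0.123). Both RS libraries were above both Ctrl libraries for let-7f-5p, let-7i-5p and miR-98-5p, 3 of the 9, and for 28.1% of all miRNAs. RS replicate 1 is a flat library. Without it miR-98-5p was called at 0.89 when that library alone was left out and at 0.78 when all 4 flat libraries were. Without RS replicate 2 the value was 0.25. Between RS and the D16 libraries no member differed by the adjusted test or at unadjusted p, with edgeR or DESeq2, beside 9.17% of all miRNAs called (26.1% at unadjusted p) for PMD-Sen and 4.44% (15.8%) for DDR-Sen. The log2 differences lay between -0.16 and 0.39 against PMD-Sen D16 and between -0.25 and 0.38 against DDR-Sen D16. In both, let-7i-5p was the largest, with 8836 and 9030 CPM in RS. With the GC slope as a covariate let-7i-5p was called, at 0.61 and 0.57, and without the flat libraries it was not, at 0.43 and 0.45.

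The induced series differed from each other. Averaged over D1 to D16 with each day compared with the same day, all 9 members had a lower estimate in PMD-Sen than in DDR-Sen (7 of 9 with total counts in place of TMM), and 7 were called. These were let-7a-5p, let-7b-5p, let-7d-5p, let-7e-5p, let-7f-5p, let-7g-5p and miR-98-5p. Of all tested miRNAs 20% were called, 10.8% as lower. The median log2 difference was -0.39 over the members and 0.02 over all. No Ctrl library enters this comparison. No member passed the thresholds of the study, which ask for more than a 2-fold difference and which 2.22% of all passed.

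Let-7d-5p had the lowest adjusted p, 4.23e-05, at a log2 difference of -0.47 (SE 0.08). Its 14 PMD-Sen libraries had 2773 to 4384 CPM with a median of 3208, and its 14 DDR-Sen libraries had 3307 to 5291 with a median of 4885. The ranges overlap at the ends, and from D2 to D8 they did not (2773 to 3458 against 3511 to 5291). Let-7a-5p had -0.43 (SE 0.07, adjusted p = 9.73e-05), with medians of 98374 and 133920 CPM. From D2 to D8 it ranged from 83795 to 119665 CPM in PMD-Sen and from 128404 to 162174 in DDR-Sen, again without overlap. Let-7e-5p narrowly did not overlap on these days (12112 to 19081 against 19097 to 27364). Let-7b-5p, let-7c-5p, let-7f-5p, let-7g-5p, let-7i-5p and miR-98-5p did overlap. The days D2 to D8 were chosen after the values were seen. The share of all miRNAs without overlap on these days is not given. Let-7b-5p had the largest difference, -0.51 (SE 0.11, adjusted p = 0.00108), with medians of 14367 and 21903 CPM. Let-7f-5p had -0.44 (SE 0.09), with medians of 27565 and 39149 CPM, and let-7e-5p had -0.39 (SE 0.08), with medians of 15501 and 21785.

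The smaller differences were those of miR-98-5p (-0.30, SE 0.10, adjusted p = 0.0258) and let-7g-5p (-0.29, SE 0.08, adjusted p = 0.0125). Let-7c-5p (-0.16, SE 0.11) and let-7i-5p (-0.04, SE 0.08) were not called, with adjusted p of 0.32 and 0.788. The calls of let-7a-5p, let-7b-5p, let-7d-5p, let-7e-5p and let-7f-5p held in 28 of 28 fits that each left out 1 library. Those of let-7g-5p and miR-98-5p held in 9 and 6 of them, at values of -0.36 to -0.22 and -0.40 to -0.22. With total counts in place of TMM, miR-98-5p (-0.13) and let-7g-5p (-0.12) were no longer called and let-7i-5p turned to 0.12, while the 5 other calls held at -0.34 to -0.23. With the GC slope of each library as a covariate all 7 were called, and without the flat libraries let-7g-5p (-0.17) and miR-98-5p (-0.16) were not.

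Day by day the series lay furthest apart from D2 to D8. The summed CPM of the 9 in PMD-Sen was 1.00 times that of DDR-Sen at D0 and 0.925 times at D1. It was 0.677, 0.718 and 0.687 times at D2 to D4, 0.657 times at D6, 0.727 times at D8 and 0.910 times at D16. The number of members with both PMD-Sen libraries below both DDR-Sen libraries was 0, 2, 6, 7, 8, 8, 7 and 1 at the 8 days. Among all tested miRNAs 22.2%, 21.7%, 22.5%, 27.2%, 28.3%, 30.3%, 28.1% and 18.6% did so. The ratios and these numbers rest on TMM-scaled CPM. By mean share of all miRNA counts the gap narrowed, with PMD-Sen at 17.9% against 22.5% at D2 and 19.3% against 23.7% at D8. At D1 PMD-Sen had the higher share, 21.7% against 21.4%. With total counts in place of TMM, 8, 7, 7, 8 and 5 members had lower estimates in PMD-Sen from D2 to D8. With TMM 8 did on each of these days. The GC slopes of the 10 libraries of D2 to D8 had a median of -0.0380 in PMD-Sen and -0.0382 in DDR-Sen. They ranged from -0.0523 to -0.00855 in PMD-Sen, which includes a flat library, and from -0.0462 to -0.0285 in DDR-Sen.

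Single days had few adjusted calls. At D0, D1, D3 and D6 there was none among the members, beside 1.67%, 1.94%, 0.833% and 0.278% of all miRNAs, with 0 members called by DESeq2 on each of these days. At unadjusted p there were 1, 2, 4 and 5 members on these days, beside 11.9%, 20.8%, 12.8% and 11.4% of all. DESeq2 called 1 member at D2 and 3 at D4. With the GC slope as a covariate 4 were called at D4 and 4 at D6. With only the 4 libraries of the day in the fit 5 were called at D6 and 5 at D8. The shares of all miRNAs called in these other fits are not given. At D2 let-7f-5p was lower in PMD-Sen (27682 and 19462 CPM against 42717 and 38778, log2 difference -0.79, adjusted p = 0.0488), beside 4.17% of all miRNAs (3.33% lower). PMD-Sen D2 replicate 2 is a flat library, and without it the value was -0.55 and not called. It was also not called without DDR-Sen D2 replicate 1 (-0.77) or replicate 2 (-0.92). At D4 let-7d-5p was lower (3162 and 3166 CPM against 5291 and 5281, log2 difference -0.74, adjusted p = 0.0309), beside 3.33% of all (2.5% lower). Its libraries agreed closely within each group, but the call was lost in each of the 4 fits that left out 1 of them (-0.71 to -0.63). At D8 let-7b-5p had 12616 and 10892 CPM in PMD-Sen against 23808 and 23293 in DDR-Sen. It passed the thresholds of the study, as 3.89% of all did, but not the adjusted test (adjusted p = 0.162). On that day edgeR called 0% of all miRNAs and 0 members, DESeq2 called 1 member (let-7d-5p), and 5 members and 12.5% of all had an unadjusted p below 0.05. At D16 no member was called by edgeR or DESeq2 or at unadjusted p, beside 0.556% of all called and 10% at unadjusted p.

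Within PMD-Sen some members were lower on late days. Early days were D0, which is before washout, and D1, and late days were D8 and D16. From early to late days let-7b-5p, let-7c-5p, let-7d-5p and let-7e-5p were downregulated, 4 of 9 beside 31.9% of all miRNAs (17.5% lower). Let-7b-5p fell from 22583, 14840, 18809 and 23676 CPM to 12616, 10892, 13717 and 9547. Every late library was below every early one, and the log2 fold change was -0.77 (SE 0.21, adjusted p = 0.00541). Let-7c-5p had 1069, 541, 736 and 792 CPM early and 561, 354, 500 and 432 late, which overlap (-0.76, SE 0.21, adjusted p = 0.00699). Let-7d-5p and let-7e-5p both changed by -0.48 (SE 0.14 and 0.15, adjusted p = 0.0113 and 0.0168). Let-7d-5p had 3873 to 4953 CPM early and 2773 to 3502 late, without overlap. For let-7b-5p and let-7d-5p alike, the share of all miRNAs separated in this way is not given. The members not called were miR-98-5p (0.35), let-7g-5p (0.28), let-7f-5p (0.24), let-7a-5p (-0.16) and let-7i-5p (-0.21).

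**Figure D4:**
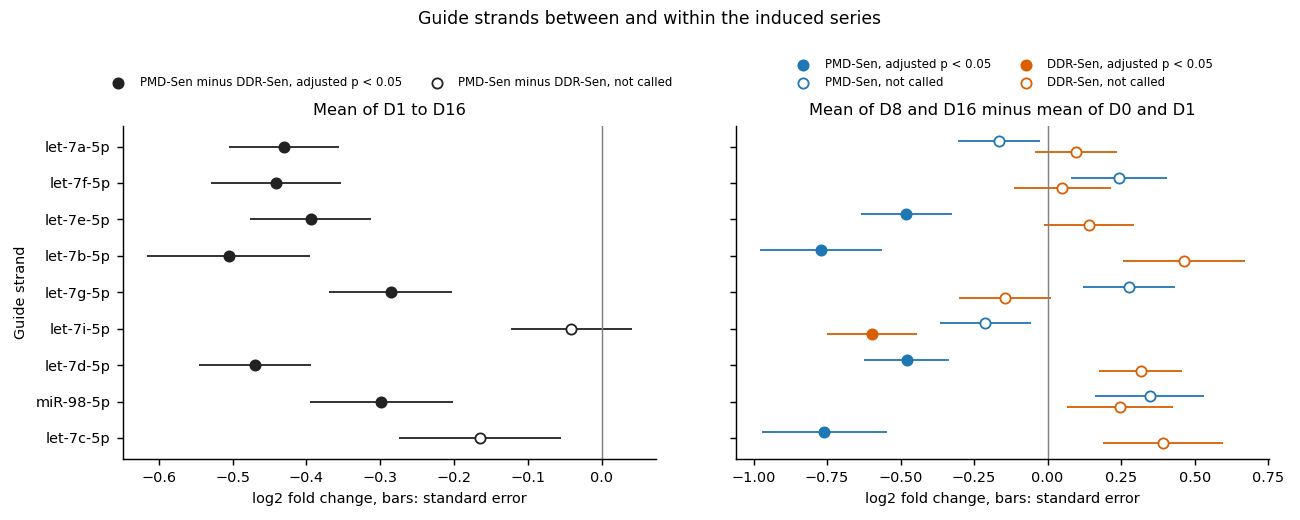
Log2 fold change (x axis) of each guide strand (y axis) with its standard error. The left panel gives PMD-Sen minus DDR-Sen over D1 to D16, where 7 filled points lie left of 0. The right panel gives late minus early days within each series, where 4 strands are called in PMD-Sen and let-7i-5p in DDR-Sen.

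Of the 4 early PMD-Sen libraries, D0 replicate 1 and D1 replicate 2 are flat libraries, and all 4 late ones had GC slopes of -0.0615 to -0.0402. Without the flat libraries let-7b-5p, let-7c-5p, let-7d-5p and let-7e-5p changed by -0.52, -0.44, -0.37 and -0.31, and none of them was called. The only call was then let-7i-5p at -0.50. The estimates of the 3 members that were higher late, none of them called, did not hold in these fits. Without the flat libraries miR-98-5p was at 0.05 and let-7f-5p at -0.06, with the covariate they were at 0.03 and -0.04, and 8 of the 9 members were lower in either fit, against 6 of 9 in the fit of all libraries. With the GC slope as a covariate let-7c-5p (-0.78) stayed called, let-7b-5p (-0.43), let-7d-5p (-0.37) and let-7e-5p (-0.27) did not, and let-7i-5p (-0.44) was. Without PMD-Sen D0 replicate 1 or without PMD-Sen D16 replicate 2 none of the 4 was called, at -0.57, -0.43, -0.35 and -0.28 and at -0.47, -0.52, -0.27 and -0.25. Without D8 replicate 1 let-7d-5p (-0.29) and let-7e-5p (-0.30) lost their calls, without D8 replicate 2 so did let-7c-5p (-0.49), let-7d-5p (-0.40) and let-7e-5p (-0.38), and without D1 replicate 2 let-7d-5p (-0.46) and let-7e-5p (-0.47). The part of base composition in the downregulation was not tested beyond these fits. Depth differed as well, since every late PMD-Sen library was deeper than every early one. The early libraries held 104439, 81668, 276804 and 150595 counts and the late ones 557532, 372145, 1933435 and 440285. Let-7c-5p had 48.5 counts in PMD-Sen D0 replicate 2. The part of depth was not tested.

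Within DDR-Sen the only member called between early and late days was let-7i-5p, beside 25.3% of all miRNAs (13.3% lower). It had 10165 and 9032 CPM at D0, 9905 and 8859 at D1, 6484 and 4951 at D8 and 6874 and 6902 at D16. Ctrl had 7906 and 6789 CPM. All early libraries were above both Ctrl libraries, the D8 libraries were below both and the D16 libraries lay between them. Every late library was below every early one. The share of all miRNAs that did so is not given. The log2 fold change was -0.60 (SE 0.15, adjusted p = 0.0045), it was called in 8 of 8 fits that left out 1 library (-0.77 to -0.57), and it was -0.66 without the flat libraries, none of which is in DDR-Sen. Let-7i-5p was already at 5985 and 6130 CPM at D3. Its levels were unlike those of the family sum, with a Pearson r of -0.0864 over the 18 conditions. That sum mostly follows let-7a-5p, which had an r of 0.993 with it. Let-7b-5p (0.46, SE 0.21), let-7c-5p (0.39, SE 0.20) and let-7d-5p (0.32, SE 0.14) had positive estimates with adjusted p of 0.0989, 0.173 and 0.1.

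The late change differed between the series for 3 members. The difference of the changes, PMD-Sen minus DDR-Sen, was -1.23 (SE 0.29, adjusted p = 0.00643) for let-7b-5p, -1.15 (SE 0.29, adjusted p = 0.00926) for let-7c-5p and -0.80 (SE 0.20, adjusted p = 0.00926) for let-7d-5p, beside 9.44% of all miRNAs called (5% lower). Let-7b-5p and let-7c-5p also passed the thresholds of the study, as 14.4% of all did. Depth overlapped in DDR-Sen, with 311049 to 1010185 counts early and 372678 to 550725 late, unlike in PMD-Sen. For let-7i-5p the difference was 0.38 (SE 0.22, adjusted p = 0.233), so its fall from early to late days was not shown to be particular to DDR-Sen. Without the flat libraries let-7b-5p (-0.93) and let-7d-5p (-0.62) were called and let-7c-5p (-0.77) was not. With the GC slope as a covariate all 3 were called at -0.88, -1.17 and -0.69. Without DDR-Sen D16 replicate 1 none was, at -0.86, -0.92 and -0.55. Let-7c-5p (-0.94 to -0.79) and let-7d-5p (-0.71 to -0.51) were also lost without replicate 1 of PMD-Sen D0, replicate 2 of PMD-Sen D16, replicate 2 of DDR-Sen D0, replicate 1 of DDR-Sen D1 or replicate 2 of DDR-Sen D8. Let-7c-5p alone was lost without replicate 2 of PMD-Sen D8, and let-7d-5p alone without replicate 2 of PMD-Sen D1 or replicate 1 of PMD-Sen D8.

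The balance among members moved with the GC slope of the library. The grouping below was chosen after the values were seen and is a description. It leaves out let-7a-5p, which is the bulk of the family, and let-7i-5p, which goes against a grouping by GC content. With the GC slope over the 36 libraries, the log2 CPM of let-7i-5p (40.9% GC) had a Pearson r of -0.348 and that of let-7a-5p (36.4% GC) -0.107, while let-7c-5p, let-7d-5p and let-7e-5p (40.9% GC) had 0.306, 0.257 and 0.382. The ratio of the summed CPM of let-7b-5p, let-7c-5p, let-7d-5p and let-7e-5p, with GC contents from 40.9% to 45.5%, to that of let-7f-5p, let-7g-5p and miR-98-5p, from 31.8% to 36.4%, was 0.907 and 0.823 in Ctrl. It was 1.44 and 0.693 at PMD-Sen D0 and 1.78 and 0.864 at D1, with the high value in the flat library each time. It was 0.599 and 0.573 at PMD-Sen D16. In DDR-Sen the ratio was 0.677 and 0.748 at D0, 1.25 and 1.06 at D4 and 0.816 and 0.551 at D16. Over the 36 libraries the ratio and the GC slope of the other miRNAs had a Pearson r of 0.848. Between the replicates of a condition the differences of both had an r of 0.920 over 18 conditions, with the same sign in 14. The slopes were taken without the members. Let-7b-5p itself had an r of 0.442 with the slope, and let-7f-5p, let-7g-5p and miR-98-5p had -0.646, -0.757 and -0.666. The r of the ratio therefore follows in part from the grouping, which was chosen after the values were seen. How much of the differences between conditions in this ratio goes with the slope was not tested beyond the covariate fits above.

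**Figure D5:**
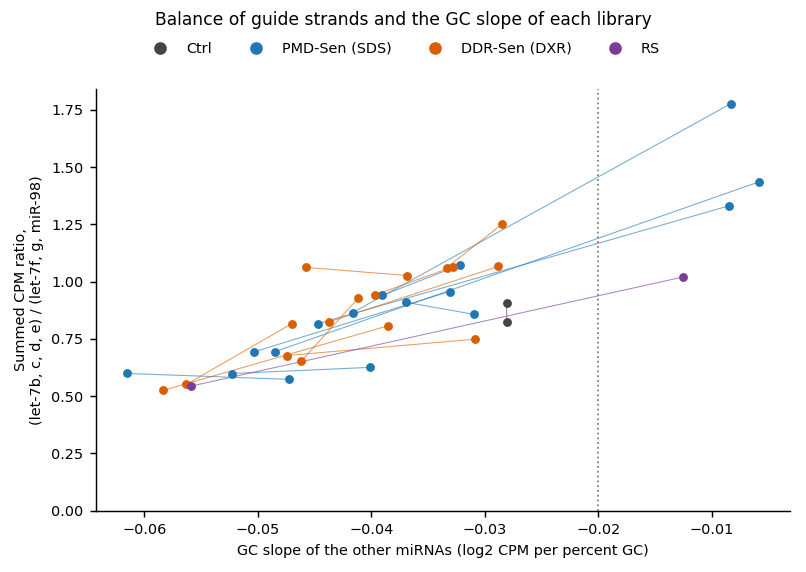
Ratio of the summed CPM of let-7b, let-7c, let-7d and let-7e to that of let-7f, let-7g and miR-98 (y axis, from 0) against the GC slope of the other miRNAs (x axis) in the 36 libraries. Thin lines join replicates, and the dotted line at -0.02 bounds the 4 flat libraries, whose ratios (1.02 to 1.78) are above those of their replicates.

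The members also sorted into sets by their levels over the 36 libraries, given as a description with no test since the points share treatments and depth. Let-7f-5p and let-7g-5p had a Pearson r of 0.92 in log2 CPM, let-7b-5p and let-7e-5p 0.92, and let-7f-5p and miR-98-5p 0.88. Let-7b-5p and miR-98-5p had -0.02, and let-7i-5p had -0.33 with let-7b-5p and -0.35 with let-7c-5p. With let-7g-5p, miR-98-5p and let-7f-5p, let-7i-5p had 0.58, 0.38 and 0.36. With let-7a-5p, let-7d-5p and let-7e-5p it had 0.02, -0.13 and -0.18. Among the members of the chromosome 9 cluster, let-7a-5p had 0.78 with let-7d-5p and 0.73 with let-7f-5p, and let-7d-5p had 0.41 with let-7f-5p, although let-7a-5p and let-7f-5p also come from other hairpins. Among tested miRNAs outside the family, those most like the summed CPM of the 9 over the 18 conditions were miR-574-5p (Pearson r 0.823), miR-574-3p (0.799), miR-486-5p (0.770), miR-26b-5p (0.765) and miR-1301-3p (0.750).

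The passenger strands, the opposite arms of the same hairpins, were rare with 1 exception. Let-7d-3p made up 14.5% to 36.7% of all let-7d reads of a library, and in total 22107 counts against 59987 of let-7d-5p. The 3p strands of every other member were at most 1.60% of the reads of that member in any library. Of the 11 passenger strands listed 5 were tested, and 0 of them were called by edgeR in any of the comparisons above, beside 7.8% of the tests of all miRNAs over the same 33 comparisons. An unadjusted p below 0.05 was found in 15 of their 165 tests and in 20.9% of all. They were not tested with DESeq2. Let-7d-3p had 1336 and 1974 CPM in Ctrl, 2742 and 2434 at DDR-Sen D4, 963 and 1019 at PMD-Sen D16 and 1286 and 749 in RS. Only DDR-Sen D4 had both libraries above both of Ctrl among these 3 conditions.

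Other miRNAs lie in the same host genes as let-7 hairpins. The 5 on the list, all tested, were miR-100-5p and miR-125b-5p (with let-7a in MIR100HG), miR-99a-5p (with let-7c), and miR-99b-5p and miR-125a-5p (with let-7e). A second copy of miR-125b lies with let-7c. MiR-125b-5p was upregulated at DDR-Sen D3 (0.59), D4 (0.45) and D6 (0.47) and in RS (0.40), and miR-125a-5p was upregulated in RS (0.85, SE 0.19). Let-7e-5p, whose hairpin lies beside that of miR-125a, had 0.09 (SE 0.22) in RS. Against Ctrl the median of the 5 was 0.40 in RS, where that of all miRNAs was 0.12, with 2 called beside 22.5% of all. On day 16 it was 0.08 after SDS and -0.03 after DXR, with 0 called by edgeR. Between the series over D1 to D16, miR-125b-5p was lower in PMD-Sen (-0.23, SE 0.05), 1 call of 5 beside 20% of all. In all, 10 of the 165 tests of these 5 miRNAs were called, where 7.8% of the tests of all miRNAs were, miR-125a-5p also in RS against each D16 group and miR-100-5p between the series at D2 (-0.58). Outside the family, 2 further human miRNAs in the sequence table carry the same seed, miR-4458 and miR-4500. MiR-4458 had 26 counts in 11 libraries and was not tested, and miR-4500 is not among the listed miRNAs.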

How the data were processed

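The authors ran the exceRpt pipeline on adapter-trimmed reads, with GRCh38 as genome and miRBase as miRNA reference. What they deposited is a matrix of unnormalized expected counts, in which a read that fits several mature miRNAs is divided among them. Libraries were assigned to groups by the column named in each sample's description, and 0 columns were without a sample. Counts were rounded, filtered with filterByExpr over 18 conditions, scaled by TMM and tested with edgeR 4.0.16 (quasi-likelihood, R 4.3.3) in 1 fit of all 36 libraries without a replicate block, with 18 residual degrees of freedom and a biological coefficient of variation of 20.9%. A miRNA was called at Benjamini-Hochberg adjusted p below 0.05 over 360 miRNAs. Calls at the thresholds of the study (unadjusted p below 0.05 and absolute log2 fold change above 1) and with DESeq2 1.42.0 are given as alternatives. CPM uses TMM-scaled totals. The procedure was run on simulated data with changes larger than those of the members, so that run does not bear on differences of their size. Named are all 9 members, their passenger strands, cluster mates, miRNAs of the same seed and the 5 most alike. Members and lists were chosen with earlier results of these data known. Marker lists and hairpin positions were matched by name to the RefSeq tables. Replicates share numbers across conditions. Deviations of same-numbered libraries had pairwise correlations of -0.458 to 0.366 over 153 pairs of conditions, and 53 were above 0.1, so the numbers were not used as pairs.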

Additional observations from a re-analysis of the deposited data

Results flagged for a closer look

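The change from early to late days differed between PMD-Sen and DDR-Sen, by the test of the difference itself, for 3 members. The log2 difference was -1.23 for let-7b-5p, -1.15 for let-7c-5p and -0.80 for let-7d-5p. Of all miRNAs 9.44% were called in this test (5% lower). The differences of the 3 members were smaller in size without DDR-Sen D16 replicate 1 and without the flat libraries, as given above, so they depend on single libraries. Let-7b-5p was lower late in 4 of 4 PMD-Sen libraries, and let-7d-5p as well. The share of all miRNAs that did so is not given, and the early PMD-Sen libraries had lower depth than the late ones. In DDR-Sen the late libraries were on average higher than the early ones for all 3, without an adjusted call. No group had 4 or more samples, so single libraries were not examined for distance from the others.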

How the results depend on the processing

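The number of members called between PMD-Sen and DDR-Sen over D1 to D16 was 7 and stayed at 5 to 7 under the other scalings, filters, tools and fits except the thresholds of the study, which gave 0, and at 5 to 7 when each library was left out. The calls against Ctrl over the 8 DDR-Sen times were the least stable, 3 in the reported fit, 0 with DESeq2 size factors, total counts or TMM without the members, 0 at the thresholds of the study, 1 at a mean of at least 10 counts, 24 with only the libraries compared, 14 with the GC slope as a covariate, 6 without the flat libraries and 25 at unadjusted p. Leaving out each library gave 0 to 3. Over the 8 PMD-Sen times there were 0, with 1 under the covariate (let-7g-5p at D6) and 3 at unadjusted p, and 0 to 0 with a library left out. DDR-Sen D16 had 0, with 1 without a filter, 2 with only its libraries, 1 without the flat libraries and 1 at unadjusted p. RS had 0, with 1 without the flat libraries, 1 at unadjusted p and 0 to 1 with a library left out. Late against early in PMD-Sen gave 4, with 2 without a filter, 2 with only its libraries, 2 under the covariate, 1 without the flat libraries, 0 at the thresholds of the study and 0 to 7 with a library left out. In DDR-Sen it gave 1, with 3 under the covariate, 0 at the thresholds of the study, 3 at unadjusted p and 1 to 4 with a library left out. The difference of these changes gave 3, with 1 without a filter and 0 to 6 with a library left out. PMD-Sen D16 against Ctrl and against DDR-Sen D16 gave 0 throughout. The causes of these shifts were not tested. The shares of all miRNAs called under these other settings are not given, so these counts describe the members alone. The covariate, the flat libraries, the unadjusted p and the averages against Ctrl were chosen after seeing the data.

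The replicate block used the number in the labels, which do not say whether same-numbered samples are paired. With this block the counts were 3, 0, 4, 1, 7 and 3 for the DDR-Sen times, the PMD-Sen times, late against early in PMD-Sen and DDR-Sen, the series over D1 to D16 and the difference. Another scaling moved the median of all miRNAs by -0.117 to 0.106 (DESeq2 size factors), -0.264 to 0.25 (total counts) and -0.0908 to 0.142 (TMM without the members). Each condition has 2 libraries, and replicates differed by up to 2.05-fold (miR-98-5p at PMD-Sen D1). The calls at single times under 2-fold were each lost in at least 3 of the 4 fits that left out 1 library of the comparison.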
